A study of Mus musculus with 9 samples.

Results

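Transcripts of 9 genes of B cells and lymphoid follicles were followed across whole mouse aortae. The genes were Ms4a1, Cd79a, Cd79b, Pax5, Cr2, Fcer2a, Cxcr5, Cxcl13 and Ccr7, taken by symbol from a table of 55453 genes. They were chosen with earlier results of these data known. Polyadenylated RNA from flash-frozen aortae of C57BL/6J mice was sequenced in 9 libraries, 3 for each of 3 genotypes. The Itga8-Cre genotype has Itga8-CreERT2, a Cre recombinase that tamoxifen switches on and that is tied to the integrin gene Itga8. The Myh11-Cre genotype has Myh11-CreERT2, the widely used inducible Cre tied to the smooth muscle myosin gene Myh11, and Wild Type mice carry no Cre by their label. The series was designed to compare the new Itga8 line with the Myh11 line in vascular smooth muscle, so B cells are not the cells that either driver targets. No sex, age, tamoxifen treatment, transgene copy number or batch is labelled, and all groups share the C57BL/6J strain.

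B lymphocytes recognise antigen through a membrane immunoglobulin that signals through the partner chains CD79A and CD79B. In lymph nodes, spleen and fat-associated lymphoid clusters they gather in follicles, drawn by the chemokine CXCL13 through its receptor CXCR5, while CCR7 guides cells to the neighbouring T cell zone. In healthy arteries most B cells lie in the adventitia and the surrounding fat, not in the muscular wall, and para-aortic lymph nodes lie close to the vessel.

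All 9 genes were detected in every library, with 248 to 3188 counts each, and all 9 passed the filter on low counts that left 19412 genes to be tested. They moved together across most mice, but less so in Myh11-Cre mouse 1, which ranked 2 of 9 for Cxcl13 and 8 of 9 for Fcer2a. Itga8-Cre mouse 2 was the highest library for 9 of 9 genes, Myh11-Cre mouse 2 the lowest for 5 and Wild Type mouse 2 the lowest for the other 4. In the mean, Itga8-Cre aortae had 1.49-fold to 1.87-fold more of these transcripts than Wild Type aortae and 1.205-fold to 2.365-fold more than Myh11-Cre aortae. No gene of the 9 passed the test in any of the 3 comparisons. For each gene, the mice of at least 1 of the genotypes compared spanned more than the difference in means, though not those of every genotype. Fcer2a differed 1.87-fold from Wild Type, where the Wild Type mice spanned 1.45-fold. A span from lowest to highest mouse is also not the same measure as a ratio of means. The highest library stood 1.72-fold to 2.74-fold above the lowest within Itga8-Cre, 1.91-fold to 3.09-fold within Myh11-Cre and 1.45-fold to 4.01-fold within Wild Type. In such bulk tissue fewer cells of a type and less RNA per cell cannot be told apart.

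Total counts were 31419238 to 42497543 per library, and no pair of libraries of 1 genotype was alike enough to be a duplicate. Levels are given as CPM, which put the libraries on 1 scale by their totals and TMM factors, with mean ± SD of 3 mice. The vessel wall itself was present in every library, with Acta2, the actin of smooth muscle, at 213 to 320 CPM in the Itga8-Cre mice, 171 to 635 CPM in the Myh11-Cre mice and 323 to 1038 CPM in the Wild Type mice. Itga8 was at 54.1 to 76.5 CPM in the Itga8-Cre mice, 72.4 to 300.3 CPM in the Myh11-Cre mice and 147 to 475 CPM in the Wild Type mice. Other tissue varied more: Rag1, the recombinase of developing lymphocytes, spanned 0.629, 0.443 and 477 CPM in Itga8-Cre mice 1, 2 and 3, 274, 233 and 44.6 CPM in Myh11-Cre mice, and 50.7, 130.5 and 16.0 CPM in Wild Type mice.

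The promoters of these genes are described here, and why their transcripts moved together across most mice was not tested. Of the 9 genes, 5 had an entry in the RefSeq promoter table (build GRCm38.p6, 250 bases before to 50 after the RefSeq gene start), and Ms4a1, Cd79b, Cxcr5 and Ccr7 had none. The 4 windows below are shown because they cover a receptor chain (Cd79a, chr7:24897247-24897546, plus strand), the complement receptor of follicles (Cr2, chr1:195176670-195176969, minus strand), the IgE receptor (Fcer2a, chr8:3694125-3694424, minus strand) and the follicle chemokine (Cxcl13, chr5:95956689-95956988, plus strand). They are written 5′ to 3′ on the gene's strand. Capitals mark the E-box CAGGTG or its reverse complement in Cd79a and Cr2, and the TATA box TATAAA in Fcer2a and Cxcl13. The window of Pax5, which held neither motif, is not shown.
Cd79a: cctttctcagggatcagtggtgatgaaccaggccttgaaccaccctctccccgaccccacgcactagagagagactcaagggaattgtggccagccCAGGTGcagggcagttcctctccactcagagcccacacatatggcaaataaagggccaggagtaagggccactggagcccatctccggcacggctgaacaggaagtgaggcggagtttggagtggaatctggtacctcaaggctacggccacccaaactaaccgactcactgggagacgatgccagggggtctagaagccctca
Cr2: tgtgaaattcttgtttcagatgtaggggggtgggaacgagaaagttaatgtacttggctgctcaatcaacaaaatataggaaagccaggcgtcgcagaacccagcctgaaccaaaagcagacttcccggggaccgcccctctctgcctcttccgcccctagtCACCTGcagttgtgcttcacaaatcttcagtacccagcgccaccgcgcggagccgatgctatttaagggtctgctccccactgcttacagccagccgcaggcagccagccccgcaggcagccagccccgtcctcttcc
Fcer2a: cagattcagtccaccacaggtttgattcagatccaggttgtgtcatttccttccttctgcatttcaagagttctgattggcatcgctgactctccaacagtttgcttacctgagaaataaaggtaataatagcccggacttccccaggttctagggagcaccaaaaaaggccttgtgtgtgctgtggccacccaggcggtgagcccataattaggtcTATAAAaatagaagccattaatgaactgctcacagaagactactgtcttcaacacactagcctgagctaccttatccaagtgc
Cxcl13: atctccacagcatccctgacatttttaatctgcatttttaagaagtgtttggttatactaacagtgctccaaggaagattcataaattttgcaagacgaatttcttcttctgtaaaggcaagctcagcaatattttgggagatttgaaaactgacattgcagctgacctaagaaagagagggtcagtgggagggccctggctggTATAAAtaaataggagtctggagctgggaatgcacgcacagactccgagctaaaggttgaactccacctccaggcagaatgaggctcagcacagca
The E-box began at position -154 from the RefSeq gene start in Cd79a and at -88 in Cr2, and the TATA box at -33 in Fcer2a and -46 in Cxcl13. Searched on both strands, CAGGTG was held by 3 of the 7 windows of these genes (Cr2, Cd79a and another start site of Fcer2a) and by 20.2% of all 32851 windows. TATAAA was held by 2 of the 7 and by 13.6% of all windows. The octamer ATGCAAAT, present in 1.74% of all windows, and CCCNNGGG, the core bound by the B cell factor EBF1, present in 13.7%, were in none of the 7. A match only describes the letters of these windows.

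**Figure D1:**
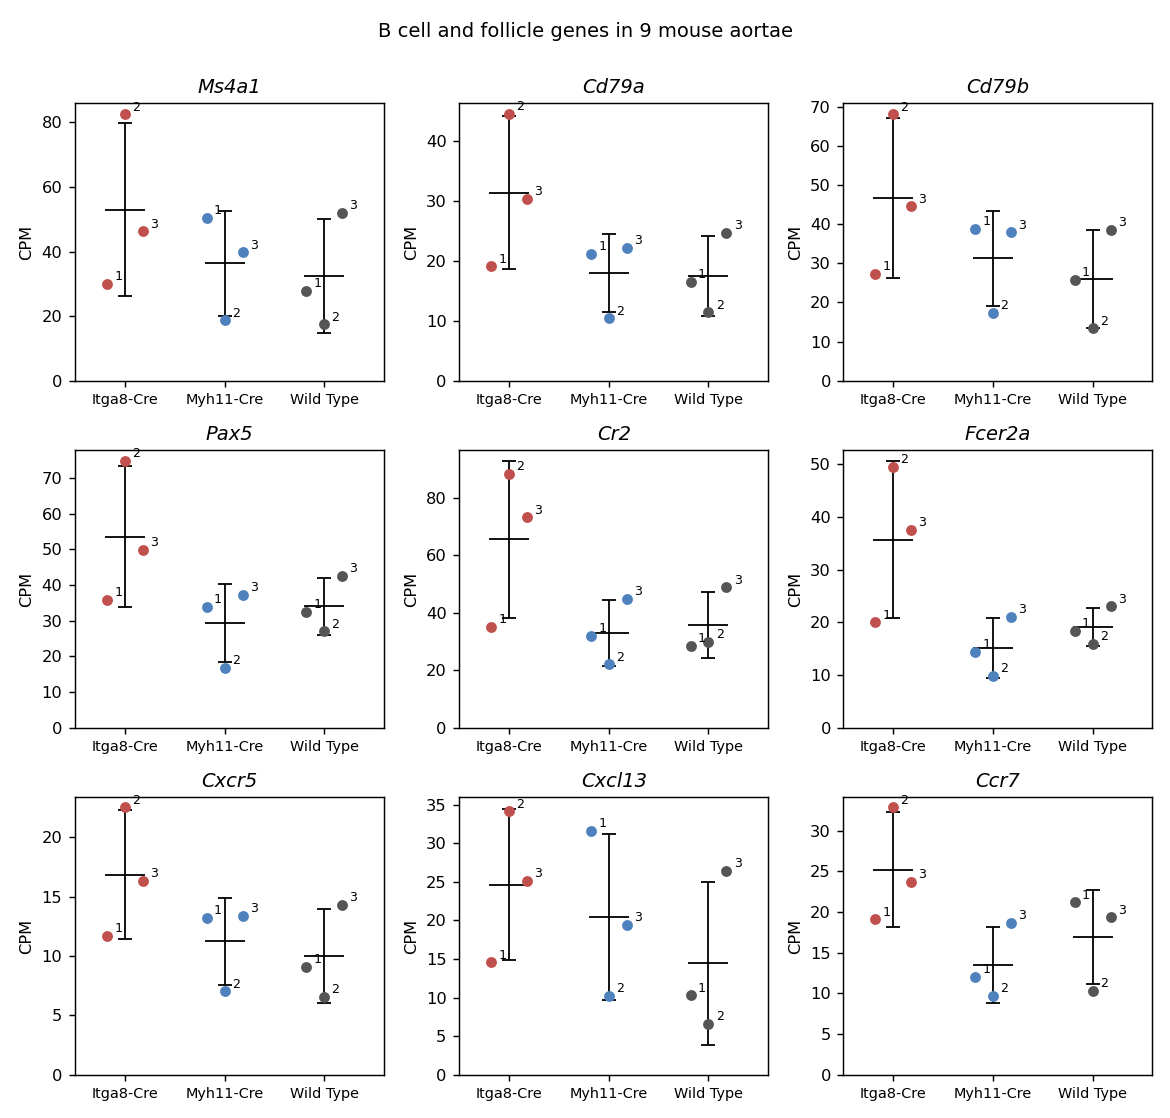
Level of each of the 9 genes (CPM, y axes from 0) in each library, by genotype (x axes); points are mice with their number, and the bar with whiskers is the mean ± SD of 3 mice. Mouse 2 is the highest Itga8-Cre point in every panel, and in every panel the 3 genotypes overlap except Itga8-Cre and Myh11-Cre for Ccr7.

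The 2 signalling chains of the B cell receptor followed one pattern. Cd79a (ENSMUSG00000003379.7, GRCm38 chr7:24897381-24902197, plus strand), the CD79A chain, was at 19.1, 44.6 and 30.4 CPM in Itga8-Cre mice 1, 2 and 3, at 21.2, 10.4 and 22.2 CPM in Myh11-Cre mice and at 16.6, 11.4 and 24.7 CPM in Wild Type mice. Itga8-Cre mice 2 and 3 stood above all other libraries, and Itga8-Cre mouse 1 lay among the Wild Type and Myh11-Cre mice. The mean was 31.4 ± 12.8 CPM in the Itga8-Cre mice, 17.97 ± 6.55 CPM in the Myh11-Cre mice and 17.6 ± 6.69 CPM in the Wild Type mice. Cd79b (ENSMUSG00000040592.11, chr11:106311341-106314762, minus strand), its partner chain, was at 27.3, 68.1 and 44.5 CPM in the Itga8-Cre mice, 38.8, 17.4 and 37.9 CPM in the Myh11-Cre mice and 25.8, 13.4 and 38.5 CPM in the Wild Type mice. The low libraries were mouse 2 of Myh11-Cre and mouse 2 of Wild Type, and the genotypes overlapped. Per kilobase of merged exons, Cd79b was the most abundant of the 9 genes, at 24.2 ± 11.4 CPM per kb (SD, n = 9 libraries), and Cd79a stood at 15.3 ± 7.17 CPM per kb.

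Ms4a1 (ENSMUSG00000024673.9, chr19:11249675-11266241, minus strand) encodes CD20, a membrane protein of mature B cells. It was at 30.1, 82.5 and 46.3 CPM in the Itga8-Cre mice, 50.4, 18.7 and 39.8 CPM in the Myh11-Cre mice and 27.9, 17.4 and 52.0 CPM in the Wild Type mice. Itga8-Cre mouse 2 stood alone at the top, while Itga8-Cre mouse 1 lay below Wild Type mouse 3 and Myh11-Cre mice 1 and 3. Set against Ptprc, the CD45 gene of all white blood cells, Ms4a1 counts were 0.126, 0.169 and 0.102 of the Ptprc counts in Itga8-Cre, 0.179, 0.0862 and 0.182 in Myh11-Cre and 0.116, 0.0848 and 0.190 in Wild Type. The lowest and the highest share were both in Wild Type mice.

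Pax5 (ENSMUSG00000014030.15, chr4:44524757-44710487, minus strand) encodes the transcription factor that holds cells in the B lineage. It was at 35.9, 74.8 and 49.9 CPM in the Itga8-Cre mice, 33.9, 16.8 and 37.2 CPM in the Myh11-Cre mice and 32.5, 27 and 42.5 CPM in the Wild Type mice. Only Itga8-Cre mouse 1 kept the Itga8-Cre and Myh11-Cre groups from being separate, by lying below Myh11-Cre mouse 3. Pax5 shares 125 and 636 bases of exon with the opposite-strand models Gm12462 and 5730488B01Rik, but those had at most 0.249 CPM in any library.

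Cr2 (ENSMUSG00000026616.15, chr1:195136811-195176716, minus strand) encodes the complement receptors of B cells and follicular dendritic cells, the stromal cells that display antigen in follicles. It was at 35.1, 88.2 and 73.1 CPM in the Itga8-Cre mice, 31.9, 22.1 and 44.7 CPM in the Myh11-Cre mice and 28.6, 29.8 and 48.9 CPM in the Wild Type mice. Itga8-Cre mice 2 and 3 were the highest of all, and Wild Type mouse 3 and Myh11-Cre mouse 3 lay above Itga8-Cre mouse 1. Fcer2a (ENSMUSG00000005540.10, chr8:3681737-3694175, minus strand), the low-affinity IgE receptor CD23 of mature follicular B cells, was at 20.01, 49.5 and 37.6 CPM in the Itga8-Cre mice, 14.4, 9.85 and 21.1 CPM in the Myh11-Cre mice and 18.4, 15.9 and 23.1 CPM in the Wild Type mice. Itga8-Cre mice 2 and 3 again stood above all other libraries, and Itga8-Cre mouse 1 lay just below Myh11-Cre mouse 3.

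Cxcr5 (ENSMUSG00000047880.15, chr9:44511787-44561877, minus strand), the receptor that brings B cells and follicular helper T cells to follicles, was at 11.7, 22.5 and 16.3 CPM in the Itga8-Cre mice, 13.2, 7.03 and 13.4 CPM in the Myh11-Cre mice and 9.10, 6.56 and 14.3 CPM in the Wild Type mice. It was the least abundant per length, at 3.81 ± 1.49 CPM per kb, and the genotypes overlapped. It shares 110 bases of exon with Bcl9l on the opposite strand, which had 61.0 to 100.3 CPM, so a part of its counts is uncertain if strand was not used in counting. Cxcl13 (ENSMUSG00000023078.6, chr5:95956951-95961068, plus strand), the ligand of CXCR5, made by follicular stroma and by macrophages of the body cavities, was at 14.6, 34.1 and 25.2 CPM in the Itga8-Cre mice, 31.6, 10.2 and 19.5 CPM in the Myh11-Cre mice and 10.3, 6.58 and 26.4 CPM in the Wild Type mice. Myh11-Cre mouse 1 was its second highest library, the only one of the 9 genes for which it ranked that high.

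Ccr7 (ENSMUSG00000037944.8, chr11:99144196-99155077, minus strand), the homing receptor of naive T cells, B cells and mature dendritic cells, was at 19.1, 32.9 and 23.7 CPM in the Itga8-Cre mice, 12.1, 9.72 and 18.7 CPM in the Myh11-Cre mice and 21.2, 10.3 and 19.4 CPM in the Wild Type mice. It had the smallest span of the 9 genes, with a highest library 3.38-fold above the lowest, against 5.18-fold for Cxcl13. Every Itga8-Cre library lay above every Myh11-Cre library, with Itga8-Cre mouse 1 just above Myh11-Cre mouse 3, and the Wild Type mice overlapped both groups.

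Between Itga8-Cre and Wild Type aortae, the log2 fold change was above 0 for 9 of 9 genes, against 55.9% of all genes tested. The median was 0.77, beside 0.04 over all genes. Fcer2a had the largest difference, 0.90 (SE 0.36), with an unadjusted p of 0.0347 and an adjusted p of 0.699 by edgeR's quasi-likelihood test. Cr2 differed by 0.87 (SE 0.38, unadjusted p = 0.0499, edgeR adjusted p = 0.699). The receptor chains Cd79b and Cd79a differed by 0.85 (SE 0.47) and 0.84 (SE 0.41), and Cxcl13 by 0.77 (SE 0.57). Cxcr5, Ms4a1, Pax5 and Ccr7 lay between 0.75 and 0.57.

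None of the 9 genes was called between Itga8-Cre and Wild Type by edgeR, by DESeq2 or by limma voom, where edgeR called 0.0% of all genes tested and DESeq2 0.166%. At an unadjusted p under 0.05, edgeR named 2 of the 9 (Cr2 and Fcer2a), where 3.97% of all genes were named and higher. DESeq2 named 3 at that level and limma voom 0. Over all genes, in either direction, DESeq2 named 1668, with 18026 genes given an adjusted p, and limma voom named 1185 of 19412. The groups overlapped for all 9 genes, where 5.76% of all genes were separate and higher, since Wild Type mouse 3 lay above Itga8-Cre mouse 1 for 9 of 9. Single mice weighed on these values. Without Itga8-Cre mouse 2 the median of the 9 differences was 0.47, with a range of 0.24 for Ms4a1 to 0.60 for Cr2, and no gene had an unadjusted p under 0.05. Without Wild Type mouse 3 the median was 1.16 and 6 genes had one. Without Itga8-Cre mouse 1 it was 1.035 with 5 genes, and without Wild Type mouse 2 it was 0.51 with none. Without Itga8-Cre mouse 3 or Wild Type mouse 1 no gene had one. The Myh11-Cre mice are not compared here and enter only through the filter, the normalization and the shared spread. With Myh11-Cre mouse 1 left out the median was 0.77 with 1 gene, and with Myh11-Cre mouse 2 left out 0.76 with 5. Over all genes tested, an unadjusted p under 0.05 came for 903 of 19848 without Wild Type mouse 3. It came for 2577 of 19897 without Itga8-Cre mouse 1 and 1261 of 19798 without Myh11-Cre mouse 2.

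**Figure D2:**
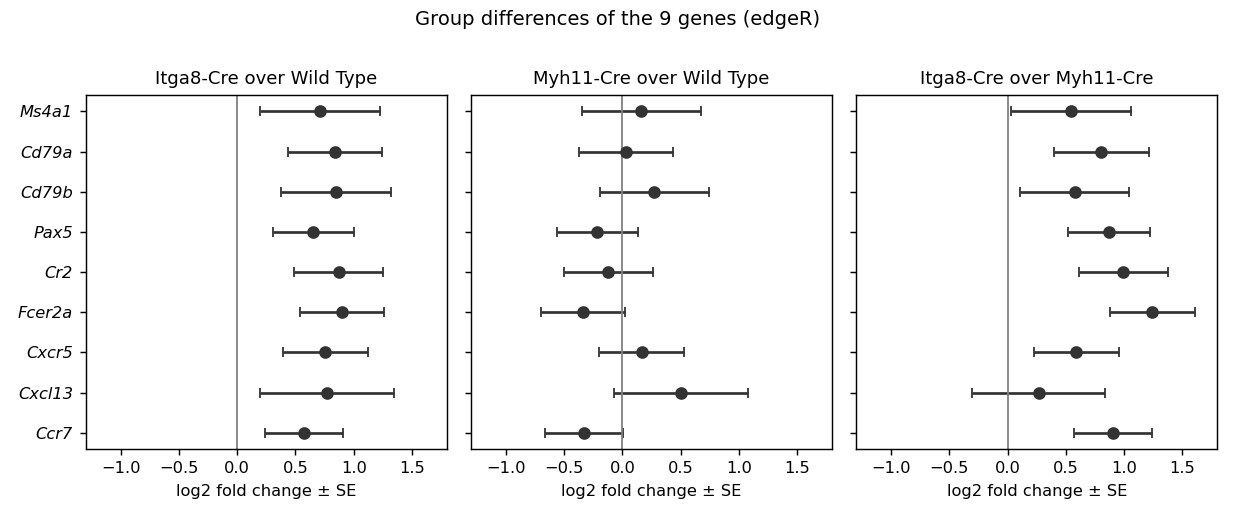
Fitted log2 fold change (x axes) of the 9 genes (rows) in the 3 comparisons, with the standard error as whiskers and a grey line at no difference. All 9 points lie right of the line for Itga8-Cre over Wild Type and over Myh11-Cre, and 5 lie right and 4 left of it for Myh11-Cre over Wild Type.

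Between Myh11-Cre and Wild Type aortae, the 9 genes lay on both sides. The log2 fold change was above 0 for 5 and below 0 for 4, with a median of 0.03, where 50.9% of all genes were above 0. Cxcl13 was at the upper end, 0.50 (SE 0.57, edgeR adjusted p = 0.675), and Fcer2a at the lower end, -0.34 (SE 0.36, edgeR adjusted p = 0.647). No gene of the 9 was called by edgeR, DESeq2 or limma voom and none had an unadjusted edgeR p under 0.05, where edgeR called 0.0%, DESeq2 4.44% and the unadjusted level 16.4% of all genes. The groups overlapped for all 9 genes, where 26.0% of all genes were separate in either direction. With 1 mouse left out, the median ran from -0.19 without Wild Type mouse 2 to 0.36 without Wild Type mouse 3. In the latter case 1 of the 9 genes had an unadjusted p under 0.05, as did 1922 of all 19848 genes tested. Both comparisons use the same Wild Type mice.

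Between Itga8-Cre and Myh11-Cre aortae, the difference was above 0 for 9 of 9 genes, against 51.3% of all genes, with a median of 0.80 beside 0.01 over all genes. It was largest for Fcer2a, at 1.24 (SE 0.36), where the mean was 35.7 ± 14.9 CPM in the Itga8-Cre mice and 15.1 ± 5.65 CPM in the Myh11-Cre mice. Its unadjusted p was 0.00812 and its edgeR adjusted p 0.521, while DESeq2 gave an adjusted p of 0.168. Cr2 followed with 0.99 (SE 0.38), at 65.5 ± 27.4 CPM in the Itga8-Cre mice and 32.9 ± 11.4 CPM in the Myh11-Cre mice. Ccr7 differed by 0.90 (SE 0.34) and Pax5 by 0.87 (SE 0.35). Cxcl13 differed least, by 0.27 (SE 0.57), with 24.6 ± 9.77 CPM in the Itga8-Cre mice and 20.4 ± 10.7 CPM in the Myh11-Cre mice.

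None of the 9 genes was called between Itga8-Cre and Myh11-Cre by edgeR, DESeq2 or limma voom, where edgeR called 0.0% and DESeq2 0.109% of all genes. Fcer2a, Ccr7, Cr2 and Pax5 had unadjusted edgeR p-values under 0.05, 4 of 9 where 7.64% of all genes had one and were higher. DESeq2 and limma voom each had 4 genes at that level, but the 7.64% is the share for edgeR alone and cannot be set beside those counts. Ccr7 alone was separate, 1 of 9 where 9.65% of all genes were separate and higher. The median was 0.47 without Itga8-Cre mouse 2 and 0.51 without Myh11-Cre mouse 2, with 1 gene at an unadjusted p under 0.05 in each case. It was 2 genes without Itga8-Cre mouse 3 or Myh11-Cre mouse 1, and 3 to 5 without any other library. The Wild Type mice are among those others, though they are not compared here and enter only through the shared fit. Over all genes tested, 732 to 3520 had an unadjusted p under 0.05 with 1 library left out. The Itga8-Cre mice are the same as in the comparison with Wild Type.

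Dividing each gene by Ms4a1 within a library shows whether the genes kept their proportions. Of 24 comparisons of such ratios (8 genes, 3 pairs of genotypes), 1 had groups that did not overlap. The ratio of Fcer2a to Ms4a1 was 0.665, 0.601 and 0.812 in Itga8-Cre, 0.285, 0.525 and 0.530 in Myh11-Cre and 0.660, 0.912 and 0.444 in Wild Type. All 3 Itga8-Cre mice lay above all 3 Myh11-Cre mice, where 0.465% of 19148 genes with counts in every library had a ratio to Ms4a1 that was separate and higher. The ratio was 1.598-fold higher in the mean, and the two-sided exact permutation test gave p = 0.1, as low as 3 mice against 3 can go, and 0.8 after Benjamini-Hochberg adjustment over the 24. The Wild Type mice spanned both groups. Ms4a1 itself was 0.54 higher in log2 in Itga8-Cre than in Myh11-Cre, which lowers the ratio of genes that do not move with it. The 0.465% is therefore no measure of how rare such a ratio is for a gene that moves with Ms4a1.

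A further ratio, chosen after the values were seen, was not tested. Cd79b to Cd79a was 1.43, 1.53 and 1.46 in Itga8-Cre, 1.83, 1.66 and 1.70 in Myh11-Cre and 1.56, 1.18 and 1.56 in Wild Type. The Myh11-Cre mice lay above all others, where 5.04% of genes had a ratio to Cd79a that was separate and lower in Itga8-Cre than in Myh11-Cre, and 1.16% one that was separate and higher in Myh11-Cre than in Wild Type. These shares also depend on how Cd79a itself moved.

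**Figure D3:**
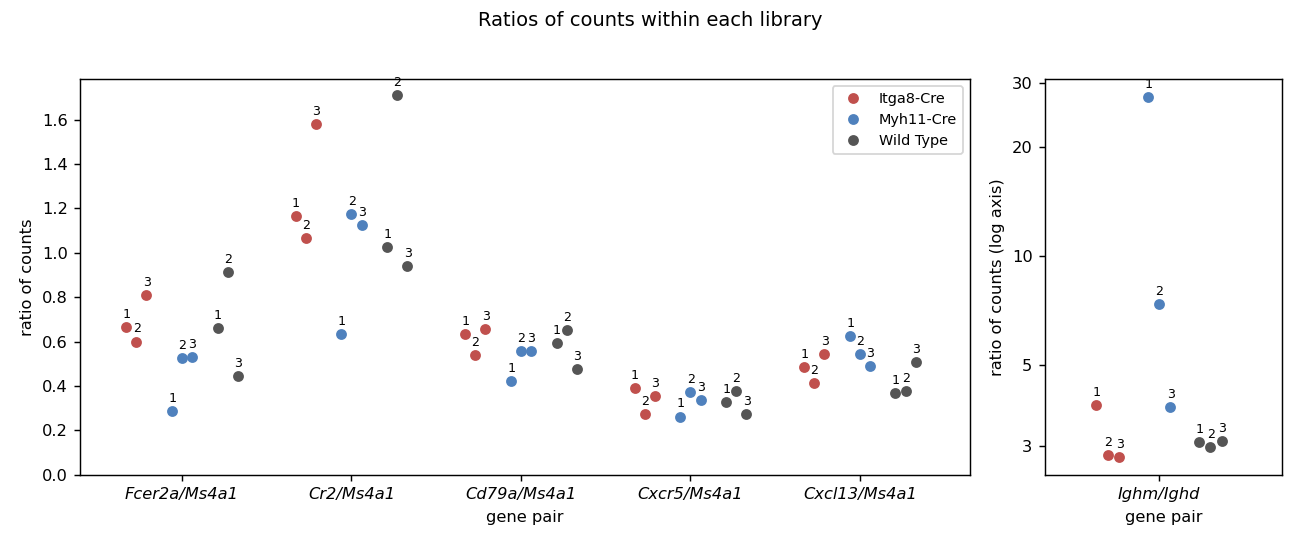
Ratio of counts of 2 genes within each library (y axes; the right panel has a log axis) for the gene pairs named on the x axes; points are mice with their number, coloured by genotype. Fcer2a over Ms4a1 is lowest in Myh11-Cre mouse 1, and Ighm over Ighd reaches 27.5 there.

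Immunoglobulin genes, also chosen after their values were seen, set Myh11-Cre mouse 1 apart. Ighm, the heavy chain of IgM, was at 187, 330 and 243 CPM in the Itga8-Cre mice, 1159, 183 and 210 CPM in the Myh11-Cre mice and 136, 96.96 and 180 CPM in the Wild Type mice. Its ratio to Ighd, the heavy chain of IgD on naive B cells, was 3.87, 2.83 and 2.795 in Itga8-Cre, 27.5, 7.37 and 3.84 in Myh11-Cre and 3.08, 2.98 and 3.09 in Wild Type. In 7 of the 9 libraries the ratio lay between 2.795 and 3.87, and both exceptions were Myh11-Cre mice. Igkc, the kappa light chain, was at 491.5 CPM in Myh11-Cre mouse 1 and at 48.4 to 236 CPM elsewhere. Igha, the heavy chain of IgA made by plasma cells, followed none of this, at 103, 294 and 21.1 CPM in the Itga8-Cre mice, 98.8, 14.7 and 8.02 CPM in the Myh11-Cre mice and 125, 74.9 and 338 CPM in the Wild Type mice.

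Across the 9 libraries, other genes were ranked by their root mean square distance from the mean centred log2 profile of Ms4a1, Cd79a, Cd79b, Pax5, Fcer2a and Cxcr5, among 13754 genes with a mean of at least 1 CPM and counts in every library. The nearest were H2-DMb2, at 0.10, and Ltb, the lymphotoxin beta gene of lymphocytes, at 0.11. Ccr6 and H2-Eb2 both stood at 0.12 and Rubcnl at 0.13. The profile itself had a root mean square of 0.60 and the median gene lay 0.65 from it. Ltb, for one, was at 23.1, 45.3 and 33.15 CPM in the Itga8-Cre mice, 22.9, 12.8 and 24.4 CPM in the Myh11-Cre mice and 21.2, 12.2 and 25.9 CPM in the Wild Type mice. Its order of libraries was close to that of the B cell genes. Cd3e of the T cell receptor complex was at rank 4525 of 13754, Acta2 at 13148 and Rag1 at 13751.

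Cr2, Cxcl13 and Ccr7 can be made by cells other than B cells, and their nearest genes were listed separately. For Cr2 these were H2-Ob, Cd72 and Cnr2, at 0.16 to 0.17, and for Ccr7 they were Insm1, Tnfrsf4 and Slc17a9, at 0.11 to 0.14. For Cxcl13 they were Fcrla, Pou2af1 and H2-Oa, at 0.31 to 0.33, so no gene followed Cxcl13 as closely. Fcrla was at 7.43, 18.7 and 11.8 CPM in the Itga8-Cre mice, 8.89, 3.94 and 9.12 CPM in the Myh11-Cre mice and 5.65, 3.60 and 9.89 CPM in the Wild Type mice. These distances describe 9 libraries that differ in depth and in tissue content, and carry no test.

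**Figure D4:**
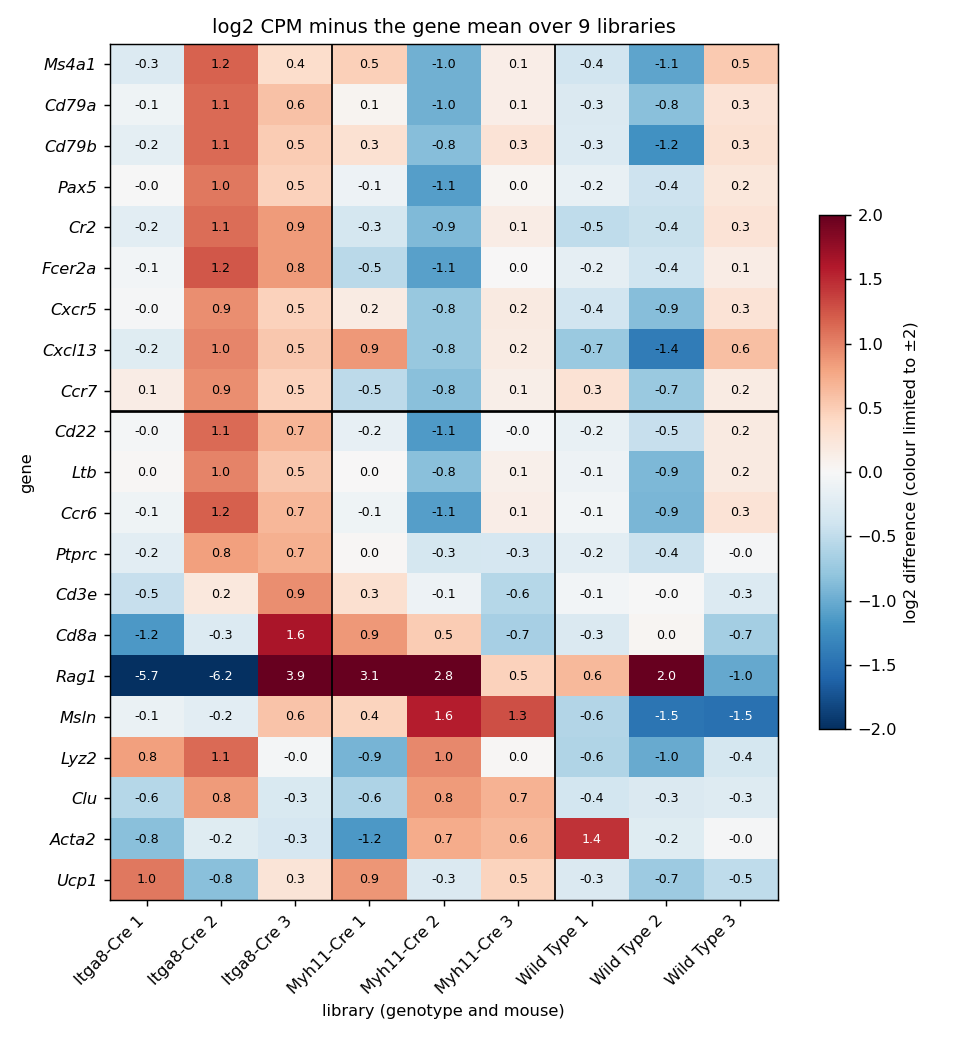
log2 CPM minus the gene's mean over 9 libraries (colour, limited to ±2, with the value printed) for the 9 genes above the black line and comparison genes below it, by library (x axis). The 9 genes share a row pattern that peaks in Itga8-Cre mouse 2 and dips in Myh11-Cre mouse 2 and Wild Type mouse 2, while Rag1, Msln, Acta2 and Ucp1 have other patterns. The 9 genes differ most among themselves in Myh11-Cre mouse 1, from -0.54 to 0.87.

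Of 24 B lineage genes outside the 9, 23 were higher in the mean in Itga8-Cre than in Wild Type (median 0.77), 11 higher in Myh11-Cre than in Wild Type (median -0.07) and 20 higher in Itga8-Cre than in Myh11-Cre (median 0.83), none called by edgeR or DESeq2. In Itga8-Cre 4 of the 24 were separate and higher than in Wild Type, where 5.76% of all genes were, and 4 than in Myh11-Cre, where 9.65% were. The genes named next had the smallest p-values of the list. Cd72, an inhibitory co-receptor, was at 15.0, 30.3 and 26.7 CPM in the Itga8-Cre mice, 11.5, 7.85 and 14.6 CPM in the Myh11-Cre mice and 13.1, 10.1 and 14.9 CPM in the Wild Type mice. Its Itga8-Cre mice lay above all others, but mouse 1, at 14.95 CPM, stood only just above Wild Type mouse 3, at 14.89 CPM. The log2 fold change of Cd72 was 0.92 (SE 0.30) over Wild Type and 1.08 (SE 0.31) over Myh11-Cre. Cd37, a tetraspanin of lymphocytes, had 29.9, 60.7 and 43.0 CPM in the Itga8-Cre mice, 26.98, 19.1 and 28.1 CPM in the Myh11-Cre mice and 28.3, 24.8 and 29.8 CPM in the Wild Type mice. It too did not overlap between Itga8-Cre and either other group, but Itga8-Cre mouse 1 stood only just above Wild Type mouse 3. Ciita, the activator of MHC class II genes, and Bcl11a, a factor needed for early B cells, differed by 0.95 (SE 0.28) and 1.01 (SE 0.32) between Itga8-Cre and Myh11-Cre, with overlap in both.

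Of 20 genes of B cell receptor signalling, some of them used in many white blood cells and some of them, such as Blnk and Cd22, also in the list above, 19 were higher in the mean in Itga8-Cre than in Wild Type (median 0.55), 8 higher in Myh11-Cre than in Wild Type (median -0.02) and 19 higher in Itga8-Cre than in Myh11-Cre (median 0.57). None was called. Btk, the kinase that couples the receptor to calcium release, was at 10.8, 18.7 and 15.1 CPM in the Itga8-Cre mice, 7.77, 6.83 and 9.74 CPM in the Myh11-Cre mice and 7.82, 6.35 and 10.4 CPM in the Wild Type mice. All 3 Itga8-Cre mice lay above the 6 other mice, with Itga8-Cre mouse 1 only just above Wild Type mouse 3. The fitted difference of Btk was 0.86 (SE 0.25) over Wild Type and 0.88 (SE 0.25) over Myh11-Cre, both with edgeR adjusted p-values above 0.5, at 0.699 and 0.521. Pik3ap1, Pik3cd and Dok3, an adaptor, a kinase subunit and an inhibitory adaptor, differed by 0.80, 0.78 and 0.89 between Itga8-Cre and Myh11-Cre, and none of their Itga8-Cre libraries overlapped the Myh11-Cre libraries. These genes and Btk were named for having the smallest p-values of their list. Over the whole list, 11 of 20 genes were separate and higher in Itga8-Cre than in Myh11-Cre, where 9.65% of all genes were, and 7 of 20 than in Wild Type, where 5.76% were.

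Rgs13, a regulator of G protein signalling known from germinal centres, was at 0.315, 1.798 and 0.442 CPM in the Itga8-Cre mice, 0.274, 0.195 and 0.104 CPM in the Myh11-Cre mice and 0.174, 0.132 and 1.69 CPM in the Wild Type mice. It was highest in Itga8-Cre mouse 2 and Wild Type mouse 3, the mice with the highest Ms4a1. Of 9 germinal centre genes, 7 were higher in the mean in Itga8-Cre than in Wild Type (median 0.19), 2 in Myh11-Cre than in Wild Type (median -0.46) and 9 in Itga8-Cre than in Myh11-Cre (median 0.64), none called by edgeR or DESeq2. Madcam1, an adhesion molecule of mucosal vessels and follicular dendritic cells, was at 0.515, 1.94 and 1.30 CPM in the Itga8-Cre mice, 0.0821, 0.195 and 0.625 CPM in the Myh11-Cre mice and 0.811, 0.450 and 1.17 CPM in the Wild Type mice. Its groups overlapped.

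Of 15 tested genes of follicular dendritic cells and lymph node stroma, 14 were higher in the mean in Itga8-Cre than in Wild Type (median 0.40), 11 in Myh11-Cre than in Wild Type (median 0.32) and 7 in Itga8-Cre than in Myh11-Cre (median -0.02). DESeq2 called Des and Chst4 higher in Myh11-Cre than in Wild Type, with adjusted p-values of 0.049 and 0.0321, and edgeR called none. Of all genes, DESeq2 called 4.44% in that comparison. Des encodes the muscle filament desmin and is abundant in smooth and striated muscle too. Of 14 tested lymphoid organ chemokines and receptors, 10 were higher in Itga8-Cre than in Wild Type (median 0.18), 7 in Myh11-Cre than in Wild Type (median -0.03) and 10 in Itga8-Cre than in Myh11-Cre (median 0.31). Ccl21a, the CCR7 ligand of lymph nodes, had 0 counts in every library, where 3 counts correspond to 0.0729 to 0.0885 CPM. Near-identical copies of it exist in this genome, so reads may have been lost in counting and its absence is uncertain.

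The lymphotoxin and BAFF pathway, which builds follicles and keeps B cells alive, had 11 of 16 genes higher in the mean in Itga8-Cre than in Wild Type (median 0.26), 10 in Myh11-Cre than in Wild Type (median 0.02) and 12 in Itga8-Cre than in Myh11-Cre (median 0.42), none called. Lta, the partner of Ltb, named for its small p, was at 1.17, 1.96 and 1.45 CPM in the Itga8-Cre mice, 1.01, 0.608 and 0.859 CPM in the Myh11-Cre mice and 1.13, 0.820 and 1.04 CPM in the Wild Type mice. Its Itga8-Cre mice lay above all others, but mouse 1, at 1.17 CPM, stood only just above Wild Type mouse 1, at 1.13 CPM. Of 13 tested plasma cell genes, 8 were higher in Itga8-Cre than in Wild Type (median 0.05), 6 in Myh11-Cre than in Wild Type (median -0.10) and 6 in Itga8-Cre than in Myh11-Cre (median -0.13), again none called.

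The surrogate light chain of bone marrow B cell precursors was near 0: Igll1 had at most 0.118 CPM, Vpreb1 at most 0.274 CPM and Vpreb2 0 counts in every library. Rag1, Rag2 and Dntt, which such precursors share with thymocytes, did not follow the 9 genes. Itga8-Cre mouse 2, the highest for every one of the 9, had the lowest Rag1 of all, and the summed CPM of 10 immature thymocyte genes was 209 to 1243 in Itga8-Cre, 335 to 902 in Myh11-Cre and 260.5 to 558 in Wild Type, with none of them at 0 in all libraries. Of these 10, 9 were higher in the mean in Itga8-Cre (median 0.63) and 9 in Myh11-Cre (median 0.83) than in Wild Type, none called, and 2 were higher in Itga8-Cre than in Myh11-Cre (median -0.23). Of 5 tested pre-B cell genes (Rag1, Rag2, Dntt, Erg and Il7r), 4 were higher in Itga8-Cre (median 1.28) and 4 in Myh11-Cre (median 1.48) than in Wild Type. In Itga8-Cre 1 was higher than in Myh11-Cre (median -0.13), and none was called. This is not a separate result, since Rag1, Rag2 and Dntt are also among the 10 thymocyte genes. Il7r is also in the lymphotoxin and BAFF list, and Igll1, Vpreb1 and Vpreb2 were not tested.

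The summed level of general white blood cell genes was highest in the same mouse as the 9 genes, and that of T cell genes was not. The summed CPM of the 9 was 213, 497 and 347 in Itga8-Cre, 247.5, 122 and 254 in Myh11-Cre and 190, 138 and 290 in Wild Type. The sum of 9 pan-leukocyte genes was 734, 1335 and 1227 CPM in the Itga8-Cre mice, 808, 618 and 679 CPM in the Myh11-Cre mice and 673, 520 and 797 CPM in the Wild Type mice. All 9 pan-leukocyte genes were higher in the mean in Itga8-Cre than in Wild Type (median 0.72) and than in Myh11-Cre (median 0.65), none called. At an unadjusted edgeR p under 0.05, 9 of 9 were higher than in Wild Type, where 3.97% of all genes were, and 5 of 9 than in Myh11-Cre, where 7.64% were. Itga8-Cre mouse 2 was the highest library for all of these genes except Ikzf1 and Coro1a, which were highest in Itga8-Cre mouse 3. Ikzf1, a lymphoid transcription factor, was at 94.1 CPM in Itga8-Cre mouse 2 and 116 CPM in Itga8-Cre mouse 3. Of 17 T cell genes, 17 were higher in the mean in Itga8-Cre than in Wild Type (median 0.76) and 17 than in Myh11-Cre (median 0.46), with sums of 305, 548.5 and 987 CPM in the Itga8-Cre mice, 601, 465 and 327 CPM in the Myh11-Cre mice and 373, 369 and 355.5 CPM in the Wild Type mice. The T cell sum was thus highest in Itga8-Cre mouse 3, and Itga8-Cre mouse 2 lay below Myh11-Cre mouse 1. Of 15 macrophage and dendritic cell genes, 14 were higher in the mean in Itga8-Cre than in Wild Type (median 0.38) and 14 than in Myh11-Cre (median 0.29), with sums of 595.5 to 1141 CPM in the Itga8-Cre mice, 411 to 1022 in the Myh11-Cre mice and 397 to 561 in the Wild Type mice. Between Myh11-Cre and Wild Type the median was 0.13 for the pan-leukocyte genes, 0.30 for the T cell genes and 0.16 for the macrophage and dendritic cell genes. No gene of these 3 lists was at 0 in all libraries.

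Tissue that is not lymphoid also differed in the mean. All 8 smooth muscle genes were lower in the mean in Itga8-Cre than in Wild Type (median -0.70), with sums of 1155 to 1501 CPM in the Itga8-Cre mice, 902.5 to 2392 CPM in the Myh11-Cre mice and 1850 to 3222 CPM in the Wild Type mice. All 9 mesothelial genes were higher in the mean in Itga8-Cre (median 0.82) and in Myh11-Cre (median 1.57) than in Wild Type, with sums of 136 to 162 CPM in the Itga8-Cre mice, 159 to 349 in the Myh11-Cre mice and 62.5 to 119 in the Wild Type mice. DESeq2 called 7 of them between Myh11-Cre and Wild Type, where it called 4.44% of all genes. The sums of 8 brown fat genes were 2351 to 7501 CPM in the Itga8-Cre mice, 3458 to 6994 CPM in the Myh11-Cre mice and 2922 to 3845 CPM in the Wild Type mice, and Itga8-Cre mouse 2 was the lowest. Of these, 4 were higher in the mean in Itga8-Cre (median 0.08) and 5 in Myh11-Cre (median 0.29) than in Wild Type. The sums of 8 thymic epithelial genes were 9.21 to 145.5 CPM in the Itga8-Cre mice, 34.2 to 143.5 CPM in the Myh11-Cre mice and 9.42 to 38.7 CPM in the Wild Type mice. In the mean 8 of them were higher in Itga8-Cre (median 1.43) and 7 in Myh11-Cre (median 1.43) than in Wild Type. DESeq2 called Epcam and Krt5 between Myh11-Cre and Wild Type, beside the same 4.44% of all genes. No gene of these 4 lists was at 0 in all libraries. The part of these other cells and tissues in the differences of the 9 genes was not tested.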

How the data were processed

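The deposited counts of reads per gene came from RNA of 9 whole aortae made into stranded poly(A) libraries read as single-end 75 nt reads, per the labels. The submitters' processing notes name build GRCm38.p6. They list, with no role or order, STAR 2.7.0f, fastp 0.20.0, DESeq2, Salmon 0.13.1, featureCounts and Subread 1.6.4. No annotation release or strand setting for counting is given in the sources used here. The authors also deposited size-factor-scaled counts, which were not used here.

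Symbols were matched to GENCODE M21, where 54402 of 55453 had a single gene, as did all 9 members. The main test was edgeR 4.0.16 in R 4.3.3 (filterByExpr by group, TMM, robust quasi-likelihood F test on all 9 libraries, Benjamini-Hochberg adjustment over 19412 genes, threshold 0.05; common biological coefficient of variation 0.294). DESeq2 1.42.0 and limma 3.58.1 (voom) were alternatives, beside other normalizations, no filter, 2 groups only, mouse number as a block and each library left out. The pipeline was tested on simulated data for Itga8-Cre against Wild Type. It called 27% of the 2-fold and 70% of the 4-fold changes put in, with 3 false calls. A gene not called may therefore still differ by 2-fold. CPM used TMM-scaled library totals, which were 31419238 to 42497543 counts before scaling. Limits of 3 counts cover counting error only. The rule for named genes took the 9 members, their nearest genes, up to 4 genes of each context list with the smallest p, and genes given as facts on the tissue or libraries (depth, Acta2, Ucp1, Rag1, Msln). Other genes the text names, such as the immunoglobulin genes, Itga8, Ptprc, Cd3e, Clu, Ly6d, Jchain, Ikzf1, Ccl21a and those at or near 0, lie outside this rule and were chosen after their values were seen. The members and lists were chosen with earlier results of these data known. Some genes of the context lists are not reported here by name.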

Additional observations from a re-analysis of the deposited data

How the results depend on the processing

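Between Itga8-Cre and Wild Type, all 144 fold changes of the 9 genes (16 alternatives) kept their direction, as did 132 of 144 between Myh11-Cre and Wild Type and 142 of 144 between Itga8-Cre and Myh11-Cre. These values are not independent, since they are refits of the same mice for genes that moved together. For example, leaving out a Myh11-Cre mouse gave a median of 0.76 to 0.77 between Itga8-Cre and Wild Type, beside 0.77 in the main fit. None of the 9 was called under any alternative. Over all genes, edgeR called 0 in each comparison. At an unadjusted p under 0.05 it named 1316 for Itga8-Cre against Wild Type, 3187 for Myh11-Cre against Wild Type and 1840 for Itga8-Cre against Myh11-Cre. DESeq2 called 30 genes for Itga8-Cre against Wild Type, 828 for Myh11-Cre against Wild Type and 19 for Itga8-Cre against Myh11-Cre. For Myh11-Cre against Wild Type, 1 gene was called with no filter and 1 with the replicate block.

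For Myh11-Cre against Wild Type, Cd79a turned to -0.017 with upper quartile factors. With 1 library left out it ran from -0.19 to 0.36, Ms4a1 from -0.15 to 0.68, Cd79b from -0.032 to 0.68, Pax5 from -0.42 to 0.068, Cr2 from -0.41 to 0.17 and Cxcr5 from -0.056 to 0.52. The ends at which these turned came without Wild Type mouse 2 (Cd79a, Cd79b, Cxcr5), Myh11-Cre mouse 1 (Ms4a1), Myh11-Cre mouse 2 (Pax5) and Wild Type mouse 3 (Cr2). Between Itga8-Cre and Myh11-Cre, Cxcl13 ran from -0.067 without Myh11-Cre mouse 2 to 0.73, and was -0.03 without Itga8-Cre mouse 2. The cause was not tested.

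Mouse numbers were not taken as pairs, because the labels give no pairing or batch. Even so, the deviations of the 9 same-numbered pairs of libraries all correlated above 0, at 0.033 to 0.396, with 5 above 0.1. Pairs with different numbers ran from -0.355 to 0.24, and 5 of 9 libraries correlated best with their own number. Whether mice of 1 number shared a batch was not tested. With the replicate block the median of the 9 genes was 0.87 between Itga8-Cre and Wild Type, 0.05 between Myh11-Cre and Wild Type and 0.85 between Itga8-Cre and Myh11-Cre, and 0 were called. Each group had 3 mice, and within at least 1 genotype of each comparison the mice spanned more than the differences in means. None of the differences of the 9 genes passed the adjusted threshold.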

Other observations

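Jchain, the chain that joins IgM and IgA into polymers, chosen after its values were seen, was at 45, 99.0 and 18.4 CPM in the Itga8-Cre mice, 145.5, 21.2 and 11.1 CPM in the Myh11-Cre mice and 35.4, 21.8 and 99.4 CPM in the Wild Type mice. Ly6d, chosen in the same way and known from early B cells and epithelia, was at 9.32, 22.1 and 33.1 CPM in the Itga8-Cre mice, 25.9, 20.7 and 16.6 CPM in the Myh11-Cre mice and 9.33, 10.4 and 13.2 CPM in the Wild Type mice, and was thus highest in Itga8-Cre mouse 3 and not in mouse 2. Clu, which follicular dendritic cells share with many other cells, was at 155, 413 and 186 CPM in the Itga8-Cre mice, 150, 412 and 373 CPM in the Myh11-Cre mice and 177, 188 and 192 CPM in the Wild Type mice, and mouse 2 of Myh11-Cre, the lowest for 5 of the 9 genes, was among its highest libraries.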
